A study of Homo sapiens with 18 samples.

Results

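The GPS2 knockout pool KO2 was compared with the parental cells it was made from. Both are MDA-MB-231, a triple negative breast cancer line with mesenchymal features. KO2 received Cas9 and the second of 2 sgRNA sets directed at exons 2 and 6 of GPS2 by lentivirus, was selected with puromycin and was kept as a heterogeneous pool without cloning, so unedited cells can remain in it. The parental cells (WT) carried no modification and were not described as having received a vector, so effects of transduction and selection cannot be told apart from those of the edit. Neither group was treated. The comparison took 3 KO2 and 3 WT libraries of the 18 in the series. The other libraries were 3 each of KO1 (the first sgRNA set), of cells with constitutively active myristoylated AKT (myrAKT), and of KO1 and KO2 given the allosteric AKT inhibitor MK2206 at 10 µM for 4 h (KO1+MK and KO2+MK). Of 57448 genes listed, 15587 reached a CPM of 1 (CPM, counted reads scaled to library size) in at least 3 of the 18 libraries, and these were tested. What sets KO2 apart from KO1 was tested directly between those pools, without the WT libraries.

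GPS2 (G-protein pathway suppressor 2) is a small subunit of the NCoR and HDAC3 corepressor complex, through which DNA-bound factors silence inflammatory and metabolic genes. In the cytosol it inhibits the ubiquitin conjugating enzyme UBC13, which builds the chains used in signalling from TNF and Toll-like receptors to NF-kB and JNK, and in the activation of AKT. NF-kB factors drive transcription of cytokines, chemokines and their own inhibitors, AKT promotes growth and excludes FOXO factors from the nucleus, and E2F factors drive the genes of DNA replication.

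The 2 exons at which the sgRNA sets were directed are shown for the position of the edit within the gene. Both are read from the minus strand of chromosome 17 of hg38, and the coding bases are given 5′ to 3′. The 94 coding bases of exon 2 (chr17:7314959-7315052) begin with the start codon, in capitals. The 83 bases of exon 6 (chr17:7313906-7313988) are coding throughout.
GPS2 exon 2: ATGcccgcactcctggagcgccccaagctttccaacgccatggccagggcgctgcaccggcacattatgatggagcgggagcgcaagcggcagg
GPS2 exon 6: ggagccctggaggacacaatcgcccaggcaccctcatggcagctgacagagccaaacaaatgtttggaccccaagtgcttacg

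The GPS2 count was not lower in KO2. Its level was 4.40, 4.89 and 4.42 CPM in the 3 WT libraries and 5.90, 6.09 and 6.14 CPM in the 3 KO2 libraries, so every KO2 library lay above every WT library. The libraries of KO2 and WT likewise did not overlap for 10952 of all genes tested (70.3%). The log2 difference was 0.40 (SE 0.094, 95% CI 0.19 to 0.60), with an adjusted p of 0.00221 in edgeR's quasi-likelihood test, short of the threshold used here, which asked for both an adjusted p no higher than 0.001 and a 1.5-fold change. The exact two-sided permutation test gave p = 0.1, the smallest that 3 against 3 allows. The level was 5.89 CPM in KO2+MK and 4.50 CPM in KO1, and KO2 and KO1 differed by 0.44 (adjusted p = 0.00125 in edgeR). A count over the whole gene does not measure the edited sequence or the protein. The authors report that western blot and genomic PCR showed the knockdown to be effective. A second annotated gene spans the exons of GPS2 and had at most 3 reads in each of these 6 libraries. How reads that fit both genes were counted is not given, so the GPS2 count may hold only a part of its reads. GPS2 also overlaps EIF5A, the translation factor gene read from the other strand, by 1140 bases, and without the strand setting reads of either may be counted to the other. EIF5A was higher than WT by 0.40 in log2 in KO2 and by 0.52 in KO1, while GPS2 in KO1 was at -0.04.

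Of 18 tested genes within 100 kb of GPS2, 9 passed the adjusted p, where 43.1% of all genes tested did so, and 4 passed the threshold, where 16.7% did. All 4 were lower. These were CLDN7, a tight junction protein (log2 fold change -2.06), the kinase gene TNK1 (-1.21), ACAP1 (-0.84) and DLG4, a synaptic scaffold (-0.80). The median of the 18 was -0.16.

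The WT libraries held 33725461 to 37128614 counted reads and the KO2 libraries 35627965 to 39027425, so depth differed little between the groups. Mitochondrial genes took 1.41% to 1.64% of reads in WT and 1.62% to 1.72% in KO2. VIM, the intermediate filament of mesenchymal cells, stood at 1366 CPM in WT and 1650 CPM in KO2. CDH1, the epithelial cadherin, had 4 reads over the 3 WT libraries and 7 over the 3 KO2 libraries. All 7 basal and mesenchymal markers reached the count minimum, but so did 6 of 8 luminal markers. Of 8 immune and stromal markers, 7 were under the count minimum. The eighth, PECAM1, an endothelial and leukocyte adhesion molecule, stood at 3.58 ± 0.181 CPM in WT and 3.98 ± 0.204 CPM in KO2 (SD, n = 3). Nothing in the labels says that the replicates were separate cultures, so p-values measure the spread between these libraries.

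KO2 differed from WT past the threshold in 2608 of the 15587 genes (16.7%), 866 of them higher in KO2 (5.56%) and 1742 lower (11.2%). Falls were also larger than rises. A fold change of at least 2 was reached by 214 higher and 870 lower genes, and of at least 4 by 31 higher and 157 lower genes. The median log2 fold change of all genes tested was 0.01, a value that the scaling of the libraries holds near 0. Protein-coding genes followed this split, with 661 higher and 1592 lower of 12685. Long noncoding RNAs did not, with 127 higher and 96 lower of 1572. At the adjusted p alone, 3249 genes were higher (20.8%) and 3466 lower (22.2%), which is the background for the counts of gene groups given further on.

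The largest rise was IL13RA2, a cell surface receptor that binds IL-13 without the usual signalling chain. It stood at 0.470, 0.275 and 0.269 CPM in WT and at 18.2, 18.9 and 18.95 CPM in KO2, a 55.0-fold difference (log2 5.78, SE 0.132, adjusted p = 3.89e-12 in edgeR). All 3 KO1 libraries stayed between 0.249 and 0.501 CPM. IL13RA2 and F13A1 were under 1 CPM in every WT library and so entered the test through groups in which they were higher.
F13A1, the A subunit of coagulation factor XIII, followed, from 0.302 ± 0.155 CPM to 4.36 ± 0.511 CPM (log2 3.81), and NGFR, the p75 neurotrophin receptor, rose from 1.08 ± 0.145 to 8.58 ± 0.889 CPM (2.99). The cancer-testis gene MAGEA3 rose from 2.65 ± 0.144 to 26.1 ± 0.787 CPM (3.30). Its near-identical neighbour MAGEA6 went from 5.60 to 7.39 CPM, and stood at 31.3 CPM in KO1, where MAGEA3 was at 7.53 CPM, so the division of reads between this pair is uncertain. Summed over the pair, the level was 8.26 ± 0.172 CPM in WT, 38.8 ± 1.32 CPM in KO1 and 33.5 ± 1.03 CPM in KO2 (SD, n = 3).
The remaining rises were of UCA1, a long noncoding RNA first described in bladder cancer (11.6 to 85.0 CPM, log2 2.87), the zinc finger gene ZNF114 (19.8 to 117 CPM, 2.55), the kinase gene CDK15 (2.28), EPB41L4A, a FERM domain protein (2.21), LINC00452 (2.13) and the pseudogene AADACP1 (2.09). Groups that did not overlap were part of the rule by which these genes were chosen.

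Among the 10 largest falls were both interleukin-1 genes, which encode the alarm cytokines IL-1α and IL-1β. IL1B stood at 70.7, 62.5 and 71.9 CPM in WT and at 3.78, 4.95 and 4.69 CPM in KO2, a 15.3-fold fall (log2 -3.93, SE 0.0832, adjusted p = 2.23e-12 in edgeR). IL1A stood at 32.8, 26.5 and 31.4 CPM in WT and at 1.66, 2.89 and 1.61 CPM in KO2 (-3.87, SE 0.147, adjusted p = 2.86e-10 in edgeR). No KO2 library came near a WT library for either gene, and KO1 lay between them, at 16.7 CPM for IL1B and 6.72 CPM for IL1A.
TLR2, a Toll-like receptor for bacterial lipoproteins, fell from 7.68 to 0.332 CPM (-4.55), CD74, the invariant chain of MHC class II, from 6.06 to 0.298 CPM (-4.33), and IL2RB, a signalling chain of the IL-2 and IL-15 receptors, from 3.38 to 0.176 CPM (-4.20).
SPINT1, an inhibitor of cell surface serine proteases, went from 314, 296 and 360 reads in WT to 3, 1 and 4 reads in KO2 (fitted log2 difference -6.90, SE 0.228). DHRS3, which reduces retinaldehyde to retinol, went from 86, 118 and 137 reads to 3, 1 and 4 (-5.39, SE 0.331). Both fitted values rest on 8 KO2 reads and are imprecise, although the libraries lay far apart.
The others were PRDM9, the meiotic histone methyltransferase (-4.59), DCAF8L2 (-4.38) and VAT1L (-3.98), which had between 22 and 35 reads in all KO2 libraries together. All of these largest falls except IL1B and IL1A were under 1 CPM in every KO2 library. Those genes entered the test through groups in which they were higher.

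**Figure D1:**
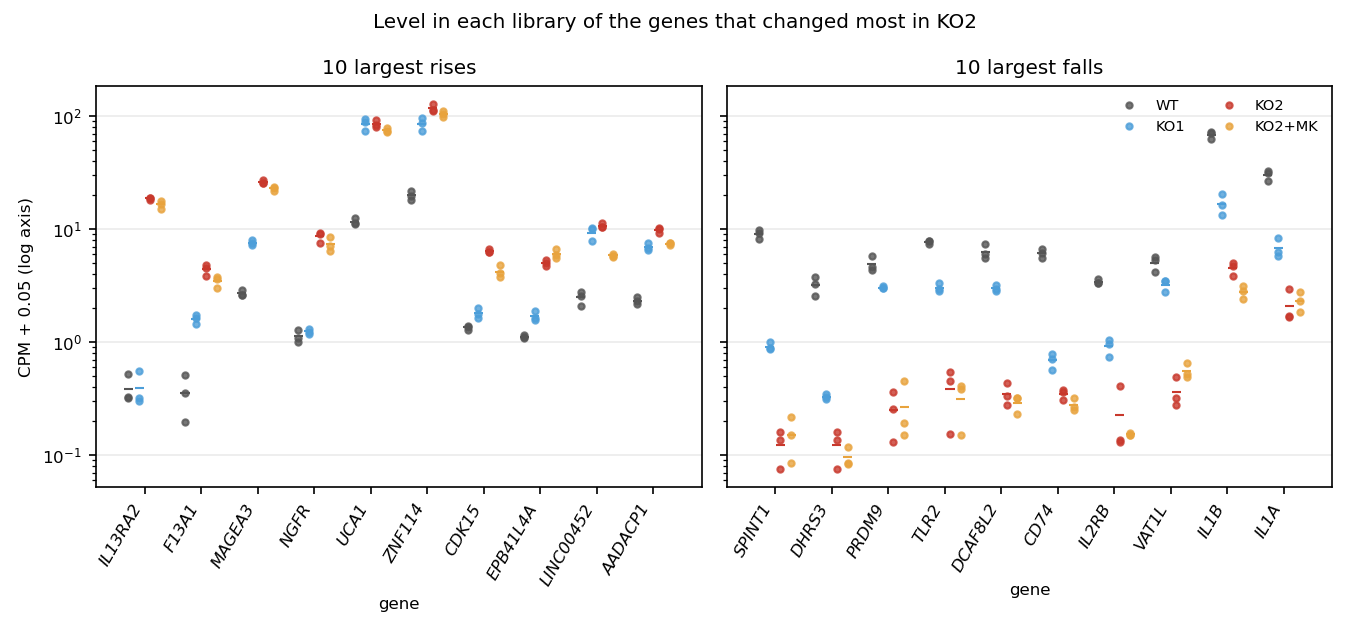
Level of the 10 largest rises (left) and 10 largest falls (right) of KO2 against WT, as CPM plus 0.05 on a log axis, with 1 point a library, 3 libraries for each of WT, KO1, KO2 and KO2+MK, and a short line at the group mean. IL13RA2 and NGFR lie at the WT level in KO1 and high in KO2 and KO2+MK, while SPINT1, CD74, IL1B and IL1A lie between WT and KO2 in KO1.

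Inflammatory cytokine and chemokine genes fell together in KO2. Of 33 listed genes, 23 reached the count minimum, and 21 of the 23 (91.3%) passed the adjusted p as lower, against 22.2% of all genes tested. All 21 also passed the fold threshold, 1 gene was higher, and the median log2 fold change was -1.88, against 0.01 for all genes. The members named in this paragraph beyond IL1B, IL1A, CSF2 and CXCL8 were chosen after their values were seen.
CXCL8, the neutrophil chemokine IL-8, stood at 99.1, 80.5 and 93.0 CPM in WT and at 14.5, 12.7 and 14.97 CPM in KO2 (-2.70, SE 0.0745, adjusted p = 1.92e-11 in edgeR). The related chemokine genes CXCL1 (17.6 to 2.98 CPM, -2.57), CXCL3 (-2.01) and CXCL2 (-1.81) fell in the same direction. CXCL1, CXCL2 and CXCL3 are close paralogues and reads may be divided between them.
The colony stimulating factor genes fell too. CSF2, encoding GM-CSF, stood at 31.0, 29.6 and 33.4 CPM in WT and at 3.92, 2.89 and 3.30 CPM in KO2 (-3.23). CSF3, encoding G-CSF, went from 15.8 to 3.50 CPM (-2.17), and CSF1, encoding M-CSF, from 785 to 261 CPM (-1.59).
IL6 went from 3.72 ± 0.311 to 1.01 ± 0.0657 CPM (-1.88), and its relative LIF from 103 ± 1.90 to 52.0 ± 4.25 CPM (-0.99). The prostaglandin genes PTGS2, encoding COX-2 (-1.95), and PTGES, encoding prostaglandin E synthase (-2.09), were lower as well. On the receiving side, IL1R1, the IL-1 receptor, was at -1.01 and its accessory chain IL1RAP at -0.61. The exception was IL11, another IL-6 family cytokine, which rose from 85.2 ± 4.64 to 125 ± 5.36 CPM (0.55, adjusted p = 9.96e-08 in edgeR). TNFSF15 did not pass (-0.10).

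NF-kB subunits and the feedback genes that NF-kB drives were lower in 16 of 19 measured cases (84.2%), with 1 higher and a median of -0.91. ICAM1, the adhesion molecule that NF-kB induces, stood at 111, 105 and 108 CPM in WT and at 9.88, 8.51 and 10.4 CPM in KO2, an 11.3-fold fall (-3.50, SE 0.0548, adjusted p = 1.43e-13 in edgeR). BIRC3, the apoptosis inhibitor cIAP2, stood at 112, 83.4 and 95.1 CPM in WT and at 21.03, 20.8 and 20.6 CPM in KO2 (-2.22). The groups stood well apart for both genes.
Among the subunits the falls were unequal. RELB, of the noncanonical pathway, fell from 23.02 to 6.03 CPM (-1.94) and NFKB2, its partner, from 135 to 60.6 CPM (-1.16), whereas RELA, the main canonical subunit, moved by only -0.18 and NFKB1 by -0.19. Of the inhibitors, NFKBIA, encoding IκBα, fell by 1.21 on the log2 scale and TNFAIP3, the A20 deubiquitinase, by 1.46, and the nuclear cofactor BCL3 by 1.73. CYLD, a deubiquitinase that restrains the pathway, was the member that rose (0.25). NFKBIB (0.12) and TNIP2 (0.01) did not pass. ICAM1, BIRC3, RELB and BCL3 were named by rule as the largest changes of the list, and the other members after their values were seen.

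**Figure D2:**
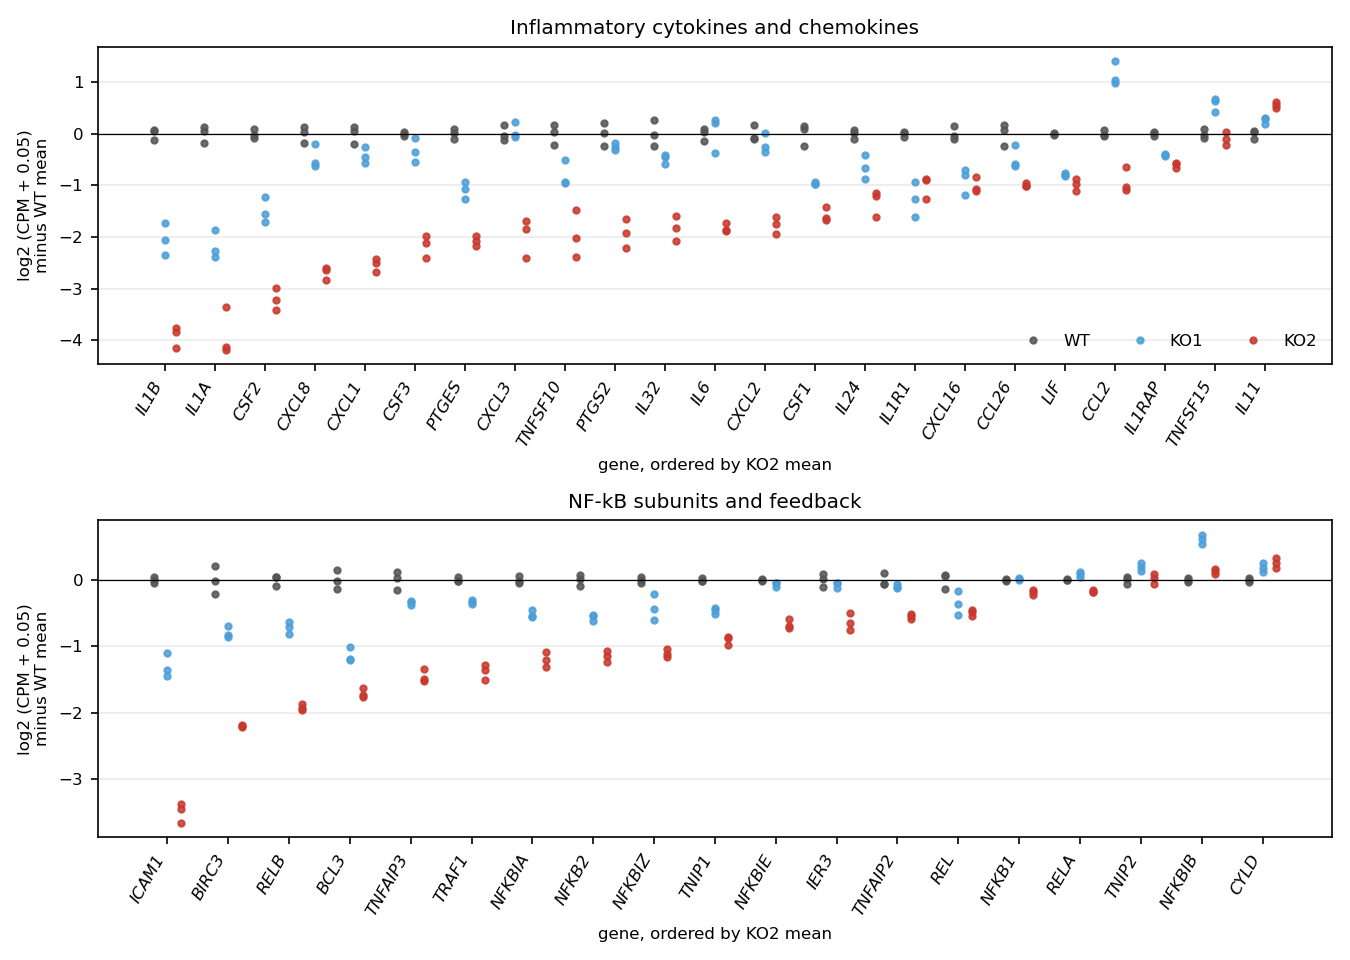
Level of each measured member of the cytokine list (top, 23 genes) and of the NF-kB list (bottom, 19 genes), as log2 of CPM plus 0.05 minus the WT mean, with 1 point a library for 3 WT, 3 KO1 and 3 KO2 libraries. KO2 lies lowest for most genes, KO1 lies between WT and KO2 for IL1B, IL1A, ICAM1 and BIRC3, and CCL2 lies above WT in KO1 and below it in KO2.

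The fall was larger than in KO1. The direct test of KO2 against KO1 called 408 genes (2.62%), 116 higher (0.744%) and 292 lower (1.87%) in KO2. In that test 15 of the 23 cytokine genes and 8 of the 19 NF-kB genes were called lower in KO2 and none was called higher. The median of each KO2 library over the cytokine list lay at -1.61, -1.82 and -1.72 log2 units from the WT mean, and that of each KO1 library at -0.448, -0.413 and -0.625, so the pools did not overlap. Over all genes tested, the libraries of the pools did not overlap for 45.7%. IL6, which was lower than WT in KO2, stood at 3.72 CPM in WT, 3.86 CPM in KO1 and 1.01 CPM in KO2. CCL2, the monocyte chemoattractant, went in opposite directions in the pools, at 14.3 ± 0.716 CPM in WT, 31.9 ± 5.19 in KO1 and 7.59 ± 1.37 in KO2, and both differences from WT passed the threshold.
The 3 KO2+MK medians over the cytokine list lay between -1.96 and -1.92 log2 units from the WT mean.

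For 5 of 18 cytokine genes with a RefSeq promoter (27.8%) and 6 of 16 NF-kB list genes (37.5%), the 250 bases before the start held a match to the NF-kB consensus on either strand, against 9.57% of all 27305 promoters, 11.7% of those of genes tested, 14.8% of those called lower and 10.5% of those called higher. These shares are a description of letters in a window and not of bound sites. CXCL1, CXCL2 and CXCL3, close paralogues with the same match, are among the 5 cytokine genes, so those matches are not independent. The NF-kB list was chosen as subunits and feedback genes of NF-kB, so its share is in part set by that choice. Promoters of 3 genes with large falls are shown, on the gene's strand in GRCh38.p14, with the consensus matches in capitals: CXCL1 (chr4:73869143-73869392), IL6 (chr7:22726950-22727199) and BIRC3 (chr11:102317234-102317483).
CXCL1 promoter: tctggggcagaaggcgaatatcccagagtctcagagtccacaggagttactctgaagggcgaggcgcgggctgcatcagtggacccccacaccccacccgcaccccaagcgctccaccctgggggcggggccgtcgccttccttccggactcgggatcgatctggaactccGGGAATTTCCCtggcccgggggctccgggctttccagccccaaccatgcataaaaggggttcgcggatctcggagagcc
IL6 promoter: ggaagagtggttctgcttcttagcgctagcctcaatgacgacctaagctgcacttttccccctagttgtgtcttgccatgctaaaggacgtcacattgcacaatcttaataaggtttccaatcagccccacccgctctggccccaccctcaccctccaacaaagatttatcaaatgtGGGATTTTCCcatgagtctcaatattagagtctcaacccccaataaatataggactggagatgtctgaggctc
BIRC3 promoter: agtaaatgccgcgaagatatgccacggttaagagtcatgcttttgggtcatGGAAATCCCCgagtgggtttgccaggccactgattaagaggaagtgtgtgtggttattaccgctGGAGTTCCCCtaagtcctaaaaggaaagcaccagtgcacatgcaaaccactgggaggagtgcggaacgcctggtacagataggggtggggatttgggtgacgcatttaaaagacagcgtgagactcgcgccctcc

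Antigen presentation and interferon genes were also lower. The median of 12 measured MHC class II genes was -1.37. Of these, 7 were lower (58.3%) and 1 higher (8.33%), against 22.2% and 20.8% of all genes tested. Besides CD74 these included HLA-DMA, which loads peptides onto class II molecules (4.72 to 1.39 CPM, -1.77), and CIITA, the activator of class II transcription (-0.87), named after its value was seen. HLA-DRA had 65 WT reads and 15 KO2 reads, and its call was lost without WT replicate 3 (-1.93, adjusted p = 0.00137 in edgeR). HLA-DPA1 lost its call without KO2 replicate 2 or 3 and without WT replicate 2 or 3. Its adjusted p was highest without WT replicate 3 (-1.47, adjusted p = 0.00477 in edgeR).
Of 19 class I and peptide loading genes, 12 were lower and 0 higher (median -0.40). HLA-B went from 158 ± 7.81 to 76.1 ± 2.49 CPM (-1.06) and HLA-C from 184 ± 11.3 to 108 ± 7.17 CPM (-0.78). HLA genes are polymorphic and alike, so reads may be lost or divided among them. Of 43 interferon response genes, 23 were lower and 4 higher (median -0.28), led by BST2, the antiviral tether (16.2 to 2.26 CPM, -2.84), and by XAF1 (-1.90) and IFITM1 (-1.84).

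Genes for attachment to the matrix were mostly lower in KO2. Of 16 integrin subunits, 13 were lower (81.3%) and 0 higher, against 22.2% and 20.8% of all genes tested. Their median was -0.65. ITGB3, the β3 chain, stood at 7.51, 10.6 and 10.0 CPM in WT and at 2.46, 2.60 and 1.88 CPM in KO2 (-2.03), and ITGA6, the laminin receptor chain, at 474, 498 and 497 CPM in WT and at 273, 266 and 268 CPM in KO2 (-0.87). The groups did not overlap for either chain.
Of 14 laminin and basement membrane genes, 10 were lower (LAMA3 -1.29, the perlecan gene HSPG2 -1.13, LAMA4 -1.09) and 1 was higher (LAMA1, 15.03 to 28.5 CPM, 0.92). Of 18 collagen genes, 11 were lower (COL9A2 -1.90) and 1 higher (COL7A1, the anchoring fibril collagen, 0.80). Of 21 matrix glycoproteins, 15 were lower and 2 higher. LTBP3, which stores latent TGF-β in the matrix, went from 49.9 ± 3.63 to 10.8 ± 0.115 CPM (-2.22).

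Matrix proteases and their inhibitors had a median of -0.60. They fell in 17 of 29 cases (58.6%) and rose in 4 (13.8%), against 22.2% and 20.8% of all genes tested. Against KO1, 7 of the 29 were called lower and 2 higher, where 1.87% and 0.744% of all genes tested were. MMP1, interstitial collagenase, stood at 1585, 1620 and 1665 CPM in WT, at 1756, 1680 and 1706 CPM in KO1 and at 360, 363 and 376 CPM in KO2. The KO2 libraries lay apart from both other groups (log2 -2.15 against WT, SE 0.0392, and -2.21 against KO1, SE 0.0344, adjusted p = 4.13e-17 in edgeR). KO1 and WT differed by 0.06 (adjusted p = 0.135 in edgeR).
ADAM8, a membrane metalloprotease, stood at 156, 163 and 174 CPM in WT and at 19.2, 19.1 and 20.6 CPM in KO2 (-3.08), with KO1 at 77.0 CPM. It was lower than in KO1 by 1.96 on the log2 scale.

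Of 7 basal and mesenchymal markers, 3 were higher and 2 lower, between MSN (-0.39) and CAV1, the caveolar coat protein (0.57). Of 6 measured luminal markers, 4 were lower, with KRT19, a simple epithelial keratin, at 251 ± 11.1 CPM in WT and 111 ± 8.71 CPM in KO2 (-1.18) and ERBB3 at -1.64. Of 24 listed epithelial and mesenchymal state genes, 10 were lower (41.7%) and 5 higher (20.8%), against 22.2% and 20.8% of all genes tested. The 4 largest changes there were of epithelial genes: the tight junction genes CLDN7 (26.7 to 6.41 CPM) and CLDN1 (-1.91), the splicing regulator ESRP1 (-1.76) and the protease gene ST14 (-1.54).

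Genes of DNA replication rose in KO2. Of 43 S phase genes, 40 were higher at the adjusted p (93.0%, against 20.8% of all genes) and 0 were lower, with a median of 0.62. CCNE2, the cyclin of S phase entry, stood at 10.7, 9.56 and 10.5 CPM in WT and at 29.5, 28.9 and 27.5 CPM in KO2 (1.47, SE 0.0601, adjusted p = 4.57e-10 in edgeR). RRM2, a subunit of ribonucleotide reductase, stood at 231, 259 and 245 CPM in WT and at 549, 531 and 526 CPM in KO2 (1.12). All KO2 libraries lay above all WT libraries for both. GINS2, of the replicative helicase, was at 1.11 and the origin licensing factor CDC6 at 0.97.
With the fold threshold, 24 of the 43 were called higher against WT, and no S phase gene was called against KO1 in either direction. At the adjusted p alone, CCNE2 (0.46, adjusted p = 1.98e-06 in edgeR) and GINS2 (0.23, adjusted p = 0.000422 in edgeR) were higher than in KO1. RRM2 and CDC6 did not pass (adjusted p = 0.00482 and 0.543 in edgeR). The library medians over the list lay 0.599 to 0.634 log2 units above the WT mean in KO2, 0.506 to 0.568 in KO1 and 0.496 to 0.538 in KO2+MK.
Genes of G2 and mitosis rose less, with 43 of 54 higher, 2 lower and a median of 0.30. The largest were CDCA8, a subunit of the chromosomal passenger complex (0.61), and TUBB4B, a β-tubulin (0.60). Replication-dependent histone genes, made in S phase, were higher in 25 of 29 cases (median 0.51), with H4C3 at 129 ± 13.03 CPM in WT and 259 ± 12.6 CPM in KO2 (1.00). Histone genes share sequence, so their reads may be divided between copies.
Among 20 cyclins and CDK inhibitors, 12 were higher and 4 lower. CCND2, cyclin D2, stood at 182, 176 and 177 CPM in WT, at 77.9, 84.6 and 78.3 CPM in KO1 and at 43.2, 44.5 and 46.2 CPM in KO2 (-2.003 against WT and -0.84 against KO1). The 3 groups did not overlap. The inhibitors CDKN1C, encoding p57 (-1.13), and CDKN1A, encoding p21 (-0.87), were lower.

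An E2F motif, GGCGGGAA on either strand, was present in the 250 bases before the start of 9 of 32 S phase genes with a RefSeq promoter (28.1%), against 2.77% of all promoters, 4.49% of those of genes tested, 7.30% of those called higher and 2.32% of those called lower. Promoters of 2 of the 9 are shown with the motif in capitals, GINS2 (chr16:85688955-85689204, minus strand) and PCNA, the replication clamp (chr20:5126623-5126872, minus strand). PCNA, named for its promoter, rose from 156 to 222 CPM (0.50).
GINS2 promoter: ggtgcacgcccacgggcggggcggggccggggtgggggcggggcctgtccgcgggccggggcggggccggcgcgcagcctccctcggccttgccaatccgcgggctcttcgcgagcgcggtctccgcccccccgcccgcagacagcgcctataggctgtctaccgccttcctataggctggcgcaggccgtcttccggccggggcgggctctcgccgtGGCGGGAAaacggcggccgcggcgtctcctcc
PCNA promoter: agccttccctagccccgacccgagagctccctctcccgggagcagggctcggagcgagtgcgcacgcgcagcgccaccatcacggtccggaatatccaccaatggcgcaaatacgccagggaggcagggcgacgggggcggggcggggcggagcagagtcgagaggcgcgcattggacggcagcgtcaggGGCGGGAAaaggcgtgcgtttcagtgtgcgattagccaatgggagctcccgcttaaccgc

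Genes that build ribosomes rose in 43 of 48 cases (89.6%) and fell in 1, against 20.8% and 22.2% of all genes tested. Their median was 0.50. UTP4, of the small subunit processome, stood at 63.3, 65.5 and 66.2 CPM in WT and at 123 CPM in all 3 KO2 libraries (0.91, SE 0.0347), with no overlap. RRS1 (0.85), NIP7 (0.84) and GRWD1 (0.82) followed. The library medians over this list lay 0.463 to 0.520 log2 units above the WT mean in KO2 and 0.113 to 0.253 in KO2+MK, so the treated libraries stood lower without reaching WT. That difference was not tested here.
Host genes of small nucleolar RNAs were higher in 9 of 17 cases and lower in 0, led by SNHG15 (10.8 to 22.1 CPM, 1.02). Mitochondrial ribosomal protein genes were higher in 40 of 75 and lower in 2 (median 0.23), and of 13 genes encoded in mitochondrial DNA 7 were higher and 1 lower, with MT-ND2 at 0.73. MT-ND2 had an SD of 72.6 CPM around 665 CPM in WT and of 42.7 CPM around 1111 CPM in KO2.
MYC, whose protein drives many of these genes, was itself slightly lower, at 295, 268 and 279 CPM in WT and 225, 216 and 242 CPM in KO2 (-0.31, adjusted p = 3.04e-05 in edgeR, below the fold threshold). Of 12 network members 4 were lower and 0 higher, and the antagonist MXI1 was among the lower ones (-0.99). In a fit over all 18 libraries MYC no longer passed (-0.30, adjusted p = 0.00199 in edgeR).

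Of 23 genes of the GPS2 complex and its UBC13 arm, 4 were higher (17.4%) and 5 lower (21.7%) at the adjusted p. These shares were near the 20.8% and 22.2% of all genes tested. None passed the fold threshold, where 16.7% of all genes tested did, and the median was 0.01. HDAC3, the deacetylase of the complex, rose from 71.8 to 90.4 CPM (0.33), and CORO2A, another subunit, fell from 34.7 to 23.8 CPM (-0.55). The scaffold NCOR1 (0.06) and the subunit TBL1XR1 (0.02) did not pass, while TBL1X fell slightly (-0.25). UBE2N, encoding UBC13, rose by 0.25 and its partner UBE2V2 by 0.24. The ubiquitin ligase TRAF6 did not pass (-0.12), and TRAF3 (-0.29) and RNF168 (-0.18) fell.

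Of 44 PI3K and AKT pathway genes, 17 were higher (38.6%) and 8 lower (18.2%), against 20.8% and 22.2% of all genes tested. Their median was -0.01. The regulatory subunits PIK3R1 (21.9 to 38.7 CPM, 0.82) and PIK3R3 (9.26 to 16.96 CPM, 0.87) rose, and the catalytic subunits PIK3C2B (-1.01) and PIK3CD (-0.78) fell. PIK3CA (-0.11) and AKT1 (-0.03) did not pass, whereas AKT2 rose (0.25). Among mTOR complex 1 components RPTOR (0.39) and MLST8 (0.60) rose, as did the adaptor IRS1 (0.52).
FOXO factors and their targets were lower in 16 of 30 cases and higher in 6, with a median of -0.31. TXNIP, which limits glucose uptake, stood at 201, 169 and 217 CPM in WT and at 44.1, 41.1 and 44.3 CPM in KO2 (-2.19). PIK3IP1, an inhibitor of PI3K, went from 4.46 to 0.714 CPM (-2.64), and PDK4, which shuts down pyruvate dehydrogenase, from 10.6 to 3.26 CPM (-1.71). TXNIP averaged 111 CPM and PIK3IP1 1.84 CPM in KO2+MK. Both means lay between those of KO2 and WT, and those differences were not tested here.

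Metabolic groups split. Of 32 lipid handling genes, 21 were lower (65.6%) and 1 higher (3.13%), against 22.2% and 20.8% of all genes tested. Their median was -0.33. NR1H3, the nuclear receptor LXRα, fell from 29.7 to 10.5 CPM (-1.50), and its target ABCG1, a sterol exporter, from 8.85 to 2.09 CPM (-2.09). Cholesterol synthesis genes went both ways, with 7 higher (29.2%) and 6 lower (25%) of 24 (median -0.03).
Of 24 genes of amino acid response and transport, 14 were lower and 3 higher. ASNS, asparagine synthetase, stood at 140, 123 and 131 CPM in WT and at 35.8, 37.5 and 41.5 CPM in KO2 (-1.78), well apart. Glycolysis and hypoxia genes were divided, 12 higher and 10 lower of 32 (median 0.03), and the angiogenic factor VEGFA fell from 219 ± 18.2 to 81.0 ± 3.95 CPM (-1.45). Of 12 iron genes 4 were higher and 5 lower. TFRC, the transferrin receptor, rose, from 660 ± 14.97 to 1317 ± 10.1 CPM (0.99).
Lysosome and autophagy genes were lower in 13 of 30 cases and higher in 5, with TFEB, the regulator of lysosome genes, at -2.02. Of 15 retinoid genes 7 were lower and 0 higher, among them the receptor RARG (-1.39) and the synthetic enzyme ALDH1A3 (18.5 to 7.18 CPM, -1.37). Among 7 measured metallothionein and zinc genes, MT1A went from 192 reads in WT to 5 in KO2, while its relative MT1E rose (0.56), and these copies are alike enough for reads to be divided between them.

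Signalling genes outside these groups gave mixed counts. Of all genes tested, 20.8% were higher and 22.2% lower. Of 34 receptor kinase genes and ligands, 6 were higher and 15 lower, with FLT1 (-1.72) and ERBB3 among the lower ones. Of 18 feedback inhibitors of MAP kinases, 8 were lower and 3 higher (DUSP8 -1.91, DUSP5 from 556 to 279 CPM, -1.004). Of 21 immediate early genes 8 were lower and 1 higher, with JUNB from 39.6 to 16.3 CPM (-1.29). Of 28 TGF-β, BMP and ID genes 7 were lower (25%) and 4 higher (14.3%). GDF15, a stress cytokine, fell from 78.8 to 18.4 CPM (-2.11). ID3, an inhibitor of basic helix-loop-helix factors, rose from 2.51 to 7.60 CPM (1.59). Among 26 YAP/TEAD targets 9 rose and 9 fell, with CCN1 at -0.82. Of 23 p53 targets 9 were lower (39.1%) and 5 higher (21.7%).

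**Figure D3:**
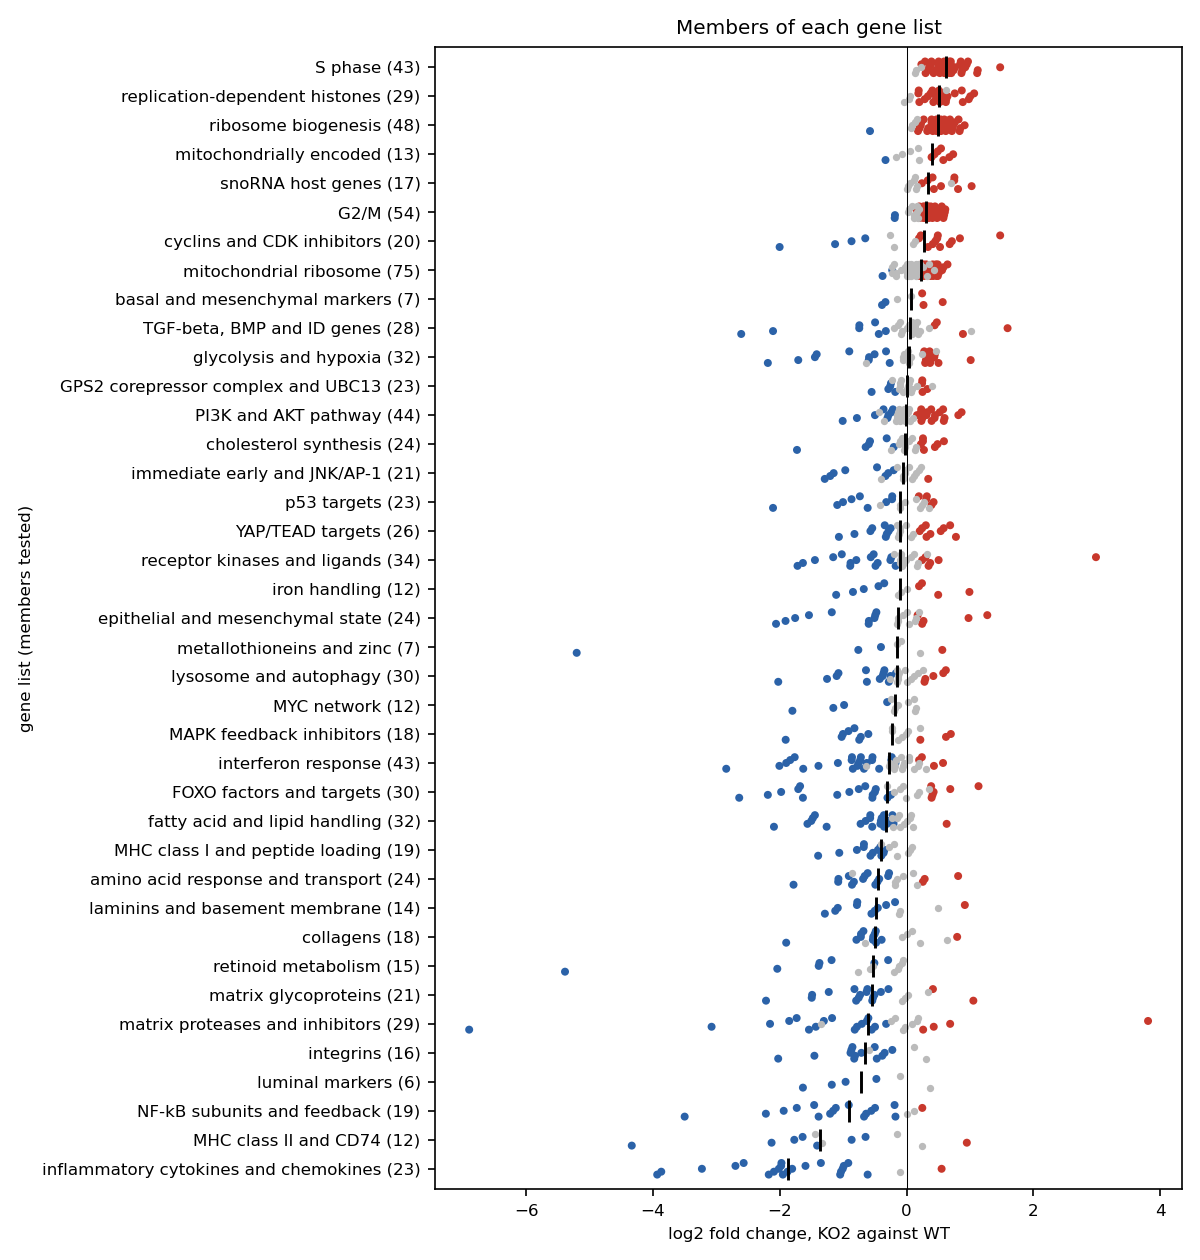
Log2 fold change of KO2 against WT for each measured member of 39 gene lists, ordered by median, with the number of members tested in brackets. Red and blue points passed an adjusted p of 0.001 as higher or lower, grey points did not, and the black bar is the list's median, from -1.88 for the cytokine list to 0.62 for the S phase list.

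Of the 408 genes called between the pools, 301 were also called in KO2 against WT, 53 higher in KO2 in both tests and 244 lower in both. The other 2307 of the 2608 genes called against WT were not called against KO1, which does not show that the pools were equal for them. Among genes called in both tests with a mean of at least 100 normalized counts in KO1 or KO2, the 5 largest rises over KO1 were of IL13RA2, NGFR (KO1 at 1.20 CPM), TBX3, CDK15 and MAGEA3. For MAGEA3 the direction turned in the sum with MAGEA6, which was lower in KO2 than in KO1. TBX3, a T-box repressor of differentiation, stood at 2.58, 3.02 and 2.64 CPM in WT, at 1.34, 1.51 and 1.91 CPM in KO1 and at 10.1, 8.77 and 8.10 CPM in KO2. It was thus past the threshold in opposite directions in the pools (1.699 in KO2, -0.81 in KO1).
Under the same count minimum, the 5 largest falls below KO1 were of VAT1L, ULK2, RIMBP2, CXCL8 and MMP1. ULK2, an autophagy kinase, stood at 6.12 CPM in WT, 3.63 CPM in KO1 and 0.538 CPM in KO2 (-2.75 against KO1). RIMBP2, a synaptic scaffold, stood at 4.32, 3.22 and 0.666 CPM.
In all, 6 genes were called against WT in both pools with opposite signs. Those with the largest difference were LINC02506, ADGRE2, an adhesion receptor, TBX3, CCL2 and SH2D2A, a T cell adaptor. LINC02506 and ADGRE2 were under 1 CPM and had at most 30 reads in every WT and KO2 library, so they entered the test through groups in which they were higher. Their calls against WT and that of SH2D2A were lost when single libraries were left out, at adjusted p values of up to 0.00219 for LINC02506 (without KO2 replicate 1), 0.00281 for ADGRE2 (without WT replicate 2) and 0.00221 for SH2D2A (without WT replicate 2) in edgeR.

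Chromosome 11 stood apart from the others. Of its 866 tested genes 179 were called lower in KO2 (20.7%) and 17 higher (1.96%), where 11.2% and 5.56% of all genes tested were. Its median log2 fold change was -0.25, whereas the medians of the other chromosomes lay between -0.05 and 0.16. Against KO1 the chromosome's median was -0.17, and those of the others lay between -0.03 and 0.08. The shift was larger at the end of the long arm. Its 216 tested genes that start at 90 Mb or beyond had a median of -0.45 against WT and -0.39 against KO1, and 189 of them (87.5%) were below 0 against WT, where 48.3% of all genes tested were. Of these 216 genes, 73 were called lower (33.8%) and 4 higher, while of the 650 before that point 106 were called lower (16.3%), against the same 11.2%. The position at 90 Mb was chosen after the values were seen.
The medians of that stretch lay at -0.436, -0.423 and -0.443 log2 units from the WT mean in the 3 KO2 libraries and between -0.473 and -0.451 in KO2+MK. They lay between -0.058 and -0.0369 in KO1, between -0.106 and -0.045 in KO1+MK, and between -0.824 and -0.777 in myrAKT. So KO2, KO2+MK and myrAKT lay low in every library, and KO1 near WT. MMP1, BIRC3 and ST14 lie in this stretch. Their differences were larger than its median, and its part in them was not tested. Without the genes of chromosome 11, KO2 against WT gave 849 higher and 1563 lower genes, and KO2 against KO1 113 and 239.

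**Figure D4:**
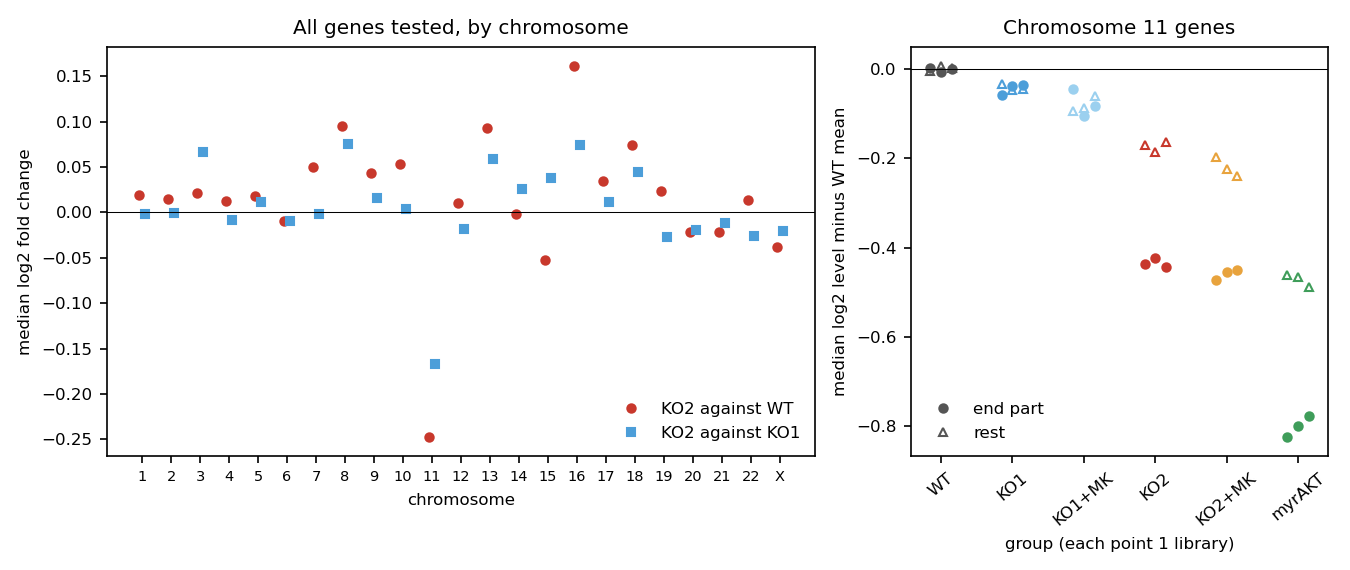
Left, median log2 fold change of all genes tested on each chromosome, for KO2 against WT (circles) and KO2 against KO1 (squares). Right, median log2 level of chromosome 11 genes minus the WT mean in each of the 18 libraries, for genes from 90 Mb to the end (end part, filled circles) and the others (rest, open triangles). Chromosome 11 is lowest in both comparisons, and its end part lies between -0.443 and -0.423 in KO2 and lower still in myrAKT.

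Among 1446 overlapping windows of 50 neighbouring genes, medians ran from -0.61, on the end part of chromosome 11, to 0.43, on chromosome 19 between 57351271 and 58538911 of hg38. That window is a cluster of zinc finger genes, and of its 50 genes 13 were called higher and 2 lower, where 5.56% and 11.2% of all genes tested were. The window medians of the libraries lay 0.378 to 0.447 log2 units above the WT mean in KO2 and 0.174 to 0.221 above it in KO1. A window on chromosome 16, between 67674531 and 70439237, had a median of 0.41 in KO2 and 0.21 in KO1 against WT. It too was picked after its values were seen. UTP4 and NIP7 lie in this chromosome 16 window, and its part in their differences was not tested.
The clustered protocadherins of chromosome 5 (between 141094606 and 141512977), cell surface proteins used for self-recognition in neurons, were lower. Of 21 measured, 14 were called lower and 0 higher, beside 11.2% and 5.56% of all genes tested, with a median of -1.06 in KO2 and -0.73 in KO1. Library medians lay between -1.02 and -0.886 log2 units from the WT mean in KO2 and between -0.774 and -0.546 in KO1. These genes share exons or are close copies, so counts of single members are uncertain. Both clusters were picked out after their values were seen.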

How the data were processed

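RNA-seq was analysed from 3 WT and 3 KO2 libraries, with 3 KO1 libraries for the direct comparison of the pools. Ribosomal RNA was depleted, and the libraries were sequenced in 2 paired-end runs, whose layout over the libraries is not given in the sources used here. The authors processed the reads with FastQC, Trim Galore, HISAT2 (hg38), featureCounts and MultiQC per the labels and methods, and the deposited values are raw counts per Ensembl gene, with no normalization. Versions, the strand setting and how multiply assigned reads were counted are not given in the sources used here, so overlapping and antisense genes may share reads.

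Symbols and positions came from GENCODE release 44, and 14526 of the 15587 genes tested had a symbol. Groups were those of the sample labels. KO2 was compared with WT, and with KO1, in edgeR 4.0.16 under R 4.3.3 (TMM within the 6 libraries compared, quasi-likelihood test, two-sided, Benjamini-Hochberg over all genes tested). A gene was called at an adjusted p of 0.001 or less with a fold of 1.5 or more. List members were counted against WT at the adjusted p alone, and against KO1 past both bounds. CPM values use TMM over all 18 libraries. Errors beside CPM are SDs over 3 libraries. DESeq2 1.42.0, other scalings, filters and thresholds, a fit over all libraries, a replicate block and the omission of each library were alternatives. Code was tested on simulated counts.

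Named genes were GPS2 and its neighbours within 100 kb, the 10 largest rises and falls with 100 or more normalized counts on average in either group and separate groups, the 5 largest in each direction that also differed from KO1, the 5 with opposite signs in the pools, and up to 4 members of each of 40 lists. The list members were those with the largest absolute log2 fold change at the adjusted p. Any measured member of the GPS2 complex and AKT pathway lists could also be named. The comparison, the members and the lists were chosen with earlier results of these data known. SOD2 was not matched, and a few genes are not reported here. Promoters (250 bases) are RefSeq's on GRCh38.p14. Replicate pairs differed by more than counting noise (mean chi-square per gene 3.32 to 7.08), and counting limits cover sampling only.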

Additional observations from a re-analysis of the deposited data

Results flagged for a closer look

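Of the 170 genes named by the rule, 45 passed the threshold in the direct test of KO2 against KO1, where 2.62% of all genes tested did. Some of the 170 were named because they differed between the pools, so the count is in part set by that choice. Values are log2 differences of KO2 minus KO1 from edgeR. Genes higher in KO2 were IL13RA2 (5.77), NGFR (2.85), TBX3 (2.51), SH2D2A (1.99), CDK15 (1.87), MAGEA3 (1.81), EPB41L4A (1.60), F13A1 (1.49) and PDK4 (0.79). PDK4 fell against WT in both pools and less in KO2. MAGEA3 shares reads with MAGEA6, and the sum of the pair was lower in KO2 (33.5 CPM) than in KO1 (38.8 CPM).

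Of the genes lower in KO2, the cytokine, NF-kB and interferon genes were CXCL8 (-2.23), ICAM1 (-2.19), CCL2 (-2.06), IL1B (-1.88), CSF2 (-1.73), IL1A (-1.69), BIRC3 (-1.40), RELB (-1.20), TNFSF10 (-1.16), RSAD2 (-2.04), BST2 (-1.15) and IFITM1 (-0.65). Receptors were TLR2 (-3.17), IL2RB (-2.23), FLT1 (-1.13) and ADGRE2 (-2.59). Proteases, matrix and junction genes were SPINT1 (-3.50), MMP1 (-2.21), ADAM8 (-1.96), CLDN1 (-1.08), LTBP3 (-0.91), ITGB3 (-0.90) and CLDN7 (-0.79). The rest were MT1A (-4.25), PRDM9 (-3.87), VAT1L (-3.30), DCAF8L2 (-3.27), LINC02506 (-2.84), ULK2 (-2.75), BMP2 (-2.38), RIMBP2 (-2.27), DUSP8 (-1.36), GDF15 (-1.04), ALDH1A3 (-0.84), CCND2 (-0.84) and FOXA1 (-0.70). SPINT1, MT1A, LINC02506, ADGRE2, PRDM9, DCAF8L2, VAT1L, BMP2, RSAD2, IL2RB and TLR2 had at most 18 reads in each KO2 library, so their fitted values are imprecise. MMP1 and BIRC3 lie on the end part of chromosome 11, which was lower as a whole in KO2 than in KO1, and the part of that stretch in their differences was not tested.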

How the results depend on the processing

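No named gene and no count reversed its direction under any alternative run. Counts of called genes depended on the fold criterion. A test against the 1.5-fold bound itself (glmTreat) left 240 higher and 780 lower genes in KO2 against WT, and 29 and 89 in KO2 against KO1, while dropping the fold minimum gave 3249 and 3466, and 864 and 1100. In KO2 against KO1 an adjusted p of 0.05 gave 316 higher genes, and no expression filter gave 195 higher and 443 lower. Leaving out each library gave 698 to 845 higher and 1574 to 1754 lower genes against WT, and 86 to 141 and 238 to 283 against KO1. DESeq2 called 825 higher and 1760 lower against WT. Scalings moved the share of called genes that were higher between 30.0% and 33.2%. GPS2 stayed between 0.36 and 0.45 and past no threshold.

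Deviations of same-numbered KO2 and WT libraries from their group means gave r between -0.152 and 0.158. Differently numbered ones gave r between -0.246 and 0.254. For KO2 and KO1, same-numbered libraries gave r between 0.006 and 0.137. With 3 libraries a group, these values cannot show whether the numbers pair them. With the replicate block, 890 higher and 1757 lower genes were called against WT, and 167 and 324 against KO1.

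Of the values of named genes under alternatives, 2519 kept their side of the threshold and 38 fell short of it, for LINC02506, ADGRE2, SH2D2A, MYC, EGR1, MRPS17, ID2, HLA-DRA, HLA-DPA1 and MT1X. MYC and EGR1 did so in the fit over all 18 libraries alone. The cause was not tested. Of the list counts, 1083 stayed within 1.5 times and 37 did not. The count of genes outside chromosome 11 was chosen after seeing the data. Genes under about 10 reads in a group are limited by depth.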
